A study of Mus musculus with 2 samples.

Results

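The genes described here encode the Wnt ligands, their receptors and the secreted proteins that modulate them. They were chosen by name: every probe set of the array whose annotation gives exactly 1 gene symbol, where that symbol is a Wnt, Fzd, Rspo, Sfrp or Dkk gene, or Lrp5, Lrp6, Lgr4, Lgr5, Lgr6, Ror1, Ror2, Ryk, Wif1, Axin2, Porcn, Znrf3 or Rnf43. This gave 54 genes with 103 probe sets, of 18193 genes and 45101 probe sets in all. They comprise 19 Wnt ligands, 4 R-spondins, 10 Frizzled receptors, 2 Lrp co-receptors, 3 Lgr receptors, 3 receptors of the Ror and Ryk type, 9 secreted inhibitors and 4 genes of feedback and ligand processing.

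RNA was compared between 2 populations of the wild-type C57Bl6 mouse embryo liver at E12.5, with 1 Affymetrix array each. One array held RNA of mesothelial cells, the sheet of epithelium on the surface of the organ, obtained after trypsin-EDTA digestion by cell sorting for the surface protein podoplanin (Pdpn). The other held RNA of liver cells of the same strain, genotype and age, and whether cells with Pdpn were removed from these is not stated. A free-text label mentions embryos before zygotic genome activation, which goes against the age in the sample names, and E12.5 was taken as given there. The number of pooled embryos is not given, and with 1 array per group no difference could be tested.

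Wnt proteins are lipid-modified by the acyltransferase Porcn, are carried to the cell surface by Wls, and bind Frizzled receptors together with the co-receptors Lrp5 or Lrp6. In the canonical pathway this stabilises beta-catenin, which acts with TCF/LEF factors on target genes such as Axin2, a negative regulator of the same pathway. R-spondins bind Lgr receptors and take the ubiquitin ligases Znrf3 and Rnf43 off the cell surface, which spares Frizzled receptors from degradation, whereas Sfrp proteins and Wif1 bind Wnts and Dkk1 blocks the Lrp co-receptors. In liver the pathway is known for its part in the growth of hepatoblasts, the progenitors of hepatocytes and bile duct cells, and in the zonation of the adult organ.

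Promoter sequence is shown for 5 genes on which the results turn: the agonist Rspo1, the ligands Wnt9a and Wnt5b, the inhibitor Sfrp2 and the feedback gene Axin2. Each line gives the 250 bases before a transcription start in RefSeq, build GRCm38.p6, 5′ to 3′ on the gene's strand. Capitals mark the GC box GGGCGG and the TCF/LEF cores CTTTGAA and CTTTGAT, searched on both strands. The windows are chr4:124986180-124986429 for Rspo1, chr11:59306680-59306929 for Wnt9a, chr3:83766071-83766320 for Sfrp2 and chr11:108920099-108920348 for Axin2, all on the plus strand, and chr6:119449387-119449636 on the minus strand for Wnt5b. RefSeq lists 3 starts for Wnt5b, and the one shown is that with a TCF/LEF core. Which start was in use cannot be read from these arrays.
Rspo1: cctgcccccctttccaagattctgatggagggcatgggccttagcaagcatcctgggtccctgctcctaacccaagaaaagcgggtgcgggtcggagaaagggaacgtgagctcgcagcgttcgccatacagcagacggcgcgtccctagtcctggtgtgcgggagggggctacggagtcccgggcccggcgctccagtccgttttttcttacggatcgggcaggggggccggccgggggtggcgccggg
Wnt9a: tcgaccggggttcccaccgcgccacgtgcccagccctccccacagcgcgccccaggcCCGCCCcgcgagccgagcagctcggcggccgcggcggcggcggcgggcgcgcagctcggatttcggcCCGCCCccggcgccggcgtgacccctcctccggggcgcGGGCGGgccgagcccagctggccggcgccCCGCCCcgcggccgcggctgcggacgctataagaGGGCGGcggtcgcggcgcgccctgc
Sfrp2: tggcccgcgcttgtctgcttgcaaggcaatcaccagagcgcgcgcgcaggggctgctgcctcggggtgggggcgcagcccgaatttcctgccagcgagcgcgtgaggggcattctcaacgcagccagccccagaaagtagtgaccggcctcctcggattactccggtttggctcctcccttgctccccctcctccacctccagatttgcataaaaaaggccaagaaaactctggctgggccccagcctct
Axin2: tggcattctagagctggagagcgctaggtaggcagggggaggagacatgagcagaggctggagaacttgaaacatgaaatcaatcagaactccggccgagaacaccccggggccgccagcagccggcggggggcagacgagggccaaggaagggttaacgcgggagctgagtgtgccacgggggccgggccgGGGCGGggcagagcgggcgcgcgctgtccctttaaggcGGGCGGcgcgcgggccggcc
Wnt5b: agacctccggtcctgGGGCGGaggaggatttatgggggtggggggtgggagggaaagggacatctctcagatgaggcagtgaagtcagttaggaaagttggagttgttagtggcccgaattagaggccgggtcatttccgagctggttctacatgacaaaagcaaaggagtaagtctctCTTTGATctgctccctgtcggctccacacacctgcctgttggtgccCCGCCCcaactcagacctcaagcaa

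Of the 54 genes, 35 had a window in the table, with 39 windows in all. A TCF/LEF core of either spelling was in 3 of these 39, 7.69%, against 7.48% of 32851 windows of all genes. Besides Wnt5b, where the core began 71 bases before the start (position -71), the genes with a core were Wnt11 and Dkk1. The GC box was in 27 of the 39 windows, 69.2%, against 32.7% of all windows. The windows of the Wnt genes were also richer in G and C, with a median of 66.8% against 52.4%, and the part of base composition in the GC box count was not tested. Wnt9a stood out among the windows shown with 5 GC boxes and 84.4% G and C, while Rspo1 and Sfrp2 had no match to any of the motifs. The absence of a match says only that these letters are not in this window.

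A difference is the log2 of the mesothelial intensity less the log2 of the liver intensity, and each gene is represented by its brightest probe set. Over all genes the median difference was 0.66, a shift of 1.58-fold towards the mesothelial array against which the Wnt genes are to be read. The highest of 27 bacterial control probe sets without matching RNA read 16.2 on the mesothelial and 10.5 on the liver array. A gene at or under these on an array is called at control level there, and a fold against such a value is written as at least N-fold, against the control level. A gene was above the floor where it reached the median of all probe sets on either array, 65.8 or 42.3. Genes above the floor that differed by 2-fold or more are called mesothelial-high or liver-high. Pdpn, the gene of the protein used for sorting, read 3877 in mesothelial and 100 in liver cells. Of 15 mesothelial markers, 13 were above the floor and all 13 were mesothelial-high, against 45.4% of all genes above it. Muc16, Lrrn4, Upk1b, Aldh1a2 and Tbx18 passed it through the mesothelial array alone and had to read higher there. That count thus cannot be read as support. The others reached the median of the liver array and were mesothelial-high too, against 39.6% of all genes that reached it. Msln was under the floor and Nkx3-2 at control level on both arrays. The SD between probe sets of 1 gene is given as an error. For single genes it takes in every probe set, also those under the floor. Pooled over the 5323 genes with 2 or more probe sets above the floor, from those probe sets alone, it was 0.70. The single and pooled values are thus unlike measures. Neither holds variation between embryos, sorts or amplifications.

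Most Wnt pathway genes read higher in the mesothelial cells. Over all 54 genes the median difference was 1.69, or 1.03 relative to all genes. For the 8 genes at control level on both arrays no difference can be read. Over the other 46 a value under the control level was set to that level. Their median was then 1.82, which is 1.07 above that of all such genes. Of the 46, 41 read higher in mesothelial cells, beside 13462 of 16358 among all such genes, so direction alone sets them little apart. Counted in that way, 33 of the 54 were at least 2-fold higher there, 61.1%, against 35.2% of all genes, and 21 were at least 4-fold higher, 38.9%, against 11.1%. At least 8-fold was reached by 9 genes, 16.7% against 3.08%, and at least 16-fold by 3, 5.56% against 0.643%. A difference of 2-fold or more towards the liver cells was found for 0 of the 54, against 2.85% of all genes.

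With low values left as measured, 35 of the 54 reached 2-fold towards the mesothelial cells, against 36.2% of all genes. The further 2 were Wif1, at control level on both arrays, and Fzd10, at least 1.78-fold higher against the control level. The counts at 4-fold, 8-fold and 16-fold were then 21, 9 and 3, against 11.4%, 3.2% and 0.676% of all genes, and 0 genes lay 2-fold or more towards the liver cells, against 4.16%. The plot of differences by role sets these values beside those of all genes.

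**Figure D1:**
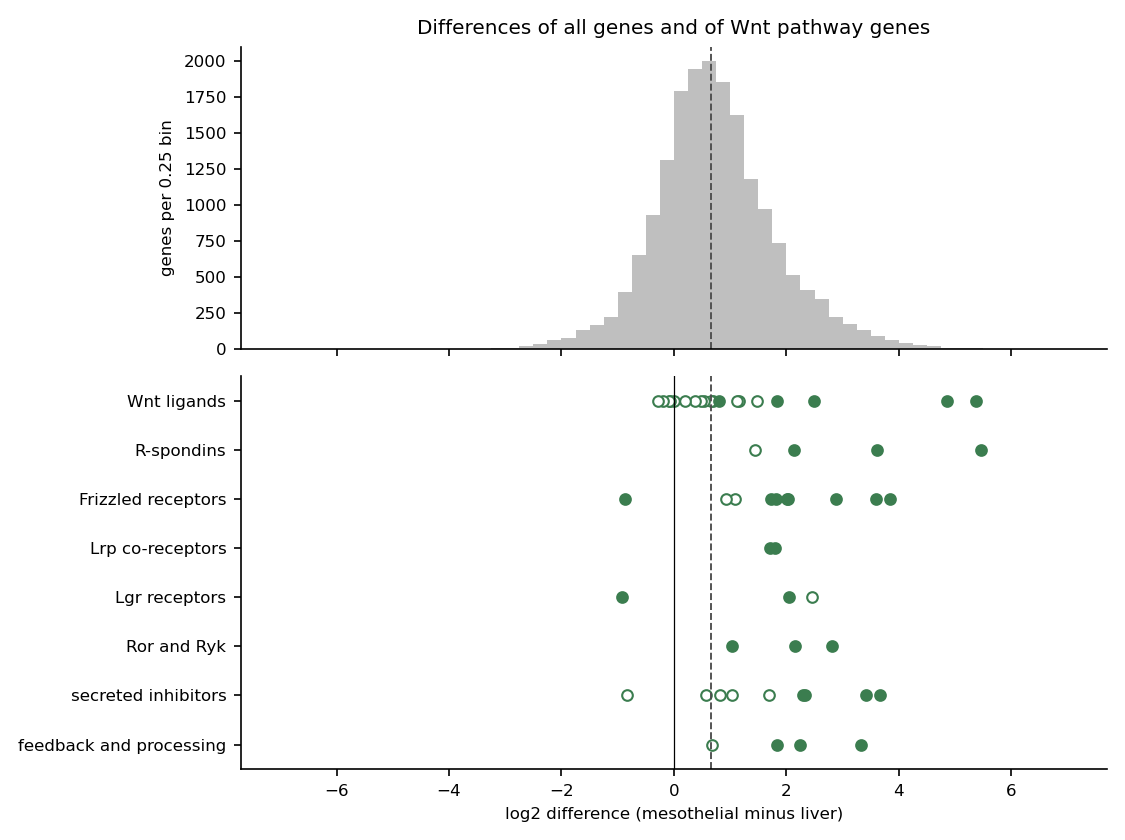
Upper panel: number of genes per bin of 0.25 in log2 difference, mesothelial minus liver, over 18193 genes. Lower panel: each of the 54 Wnt pathway genes as a point by role, filled where above the floor, with the dashed line at the median of all genes, 0.66. R-spondins, Frizzled receptors and inhibitors lie mostly right of the line, and most Wnt ligands lie around it as open points. Values under the control level are drawn as measured.

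The floor was passed by 30 of the 54 genes, and 27 of these were mesothelial-high, against 45.4% of all genes above it, the share to set beside each further count of mesothelial-high genes. That count cannot be read as support, since 14 of the 30 passed through the mesothelial array alone and had to read higher on it. The 14 are Axin2, Dkk3, Fzd3, Fzd8, Lrp5, Rnf43, Ror1, Rspo1, Rspo2, Sfrp5, Wnt4, Wnt5a, Wnt5b and Wnt9a. Of the 16 that reached the median of the liver array, 13 were mesothelial-high, against 39.6% of all genes chosen in that way. Of the 30, 0 were liver-high, against 3.83% of all genes above the floor.

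The counts depended on how the arrays were scaled, and the shares of all genes moved too. With both arrays centred on their medians, 26 of the Wnt genes were mesothelial-high and 2, Fzd5 and Lgr5, liver-high, against 23.9% and 9.26% of all genes. With the hybridisation control medians as centre, the counts were 17 and 2 against 14.6% and 17.9%. Among all genes past 2-fold, 92.2% were mesothelial-high as deposited, 72.0% after median centring and 44.9% with the hybridisation control medians as centre.

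**Figure D2:**
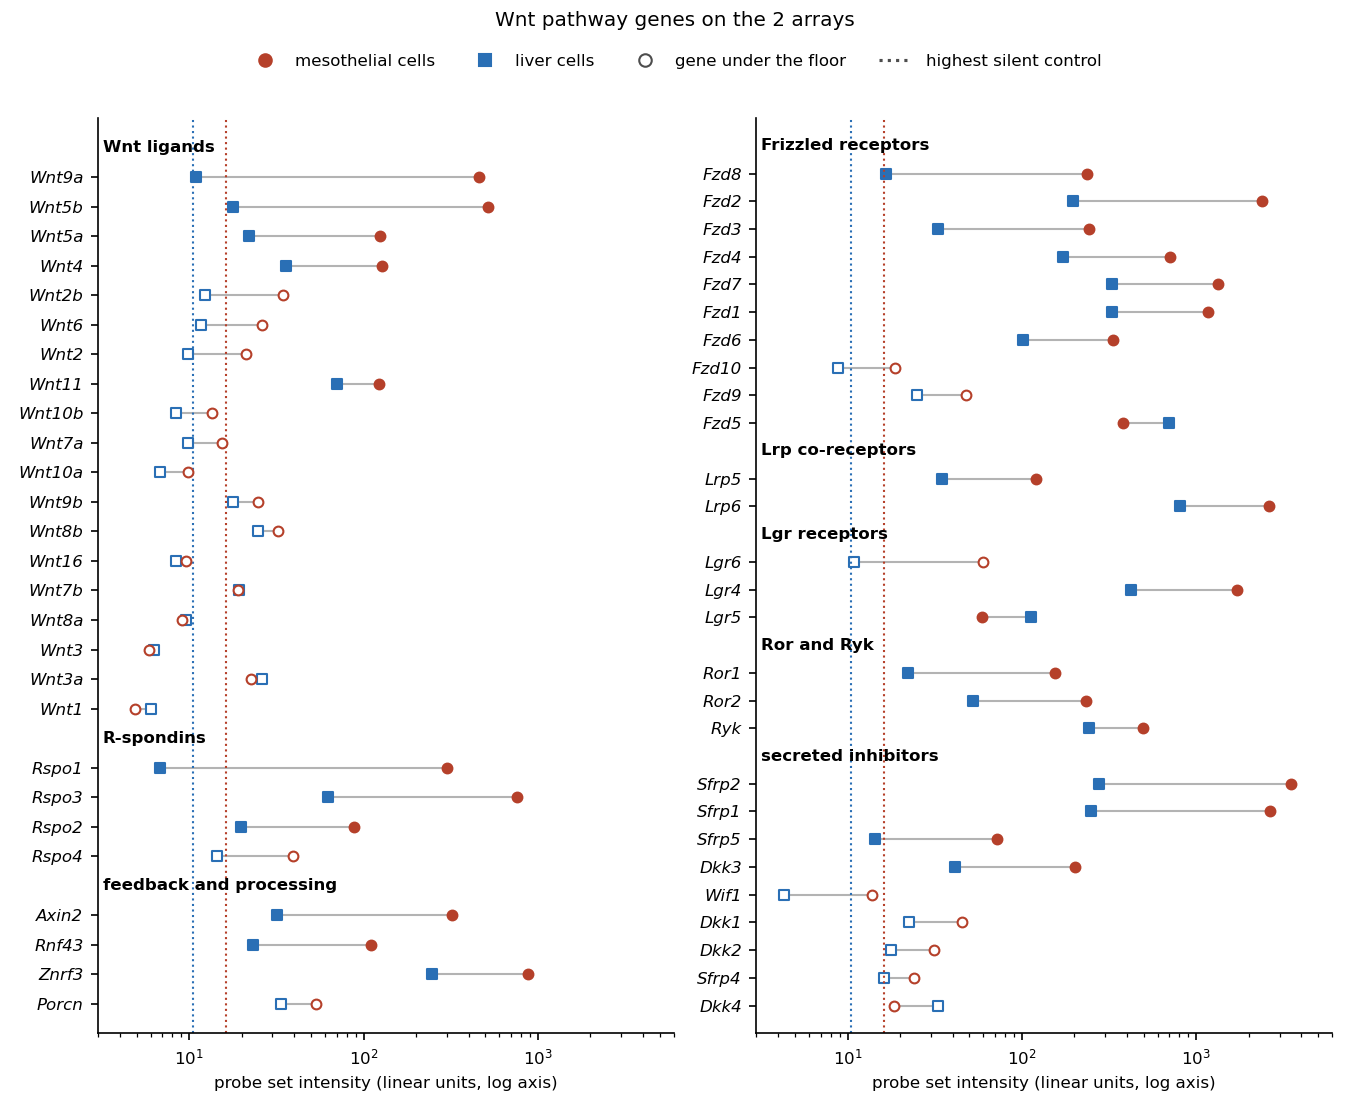
Intensity of the brightest probe set of each of the 54 genes in mesothelial cells (circles) and liver cells (squares) on a log axis, by role, with open symbols for genes under the floor. Dotted lines mark the highest silent control of each array, 16.2 and 10.5. Levels of different genes come from different probes and cannot be compared with each other. Long bars reaching right are seen for Wnt9a, Wnt5b, Rspo1, Rspo3, Fzd2, Fzd8, Sfrp1 and Sfrp2, and reversed bars for Fzd5, Lgr5 and Dkk4.

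Among the 19 Wnt ligands, 4 were mesothelial-high, 1 was above the floor with a smaller difference, and 14 were under it. The 4 are Wnt9a, Wnt5b, Wnt5a and Wnt4, and each passed the floor through the mesothelial array alone. Their count thus cannot be read as support. Since 7 of the 19 were at control level on both arrays, no median is given over the whole family. Over the other 12, with low values at control level, the median was 1.09, which is 0.34 above that of all such genes.

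Wnt9a, a ligand of the canonical pathway, read 456.9 on the mesothelial and 11 on the liver array, 41.5-fold higher, with the liver value barely over the control level. Its other probe set read 14.3 against 8.8, at control level on both arrays, so the SD between the 2 was 3.31 and the median over them 3.04. The large difference thus rests on 1 probe set.

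Wnt5b, a ligand known mainly for non-canonical signalling, read 515.4 against 17.8, 29.0-fold higher. That probe set carries the suffix of those that can cross-hybridise with related transcripts. The other read 52.9 against 15.7, under the floor but in the same direction, with a difference of 1.75 in place of 4.86. Both probe sets of Wnt5b were therefore higher in mesothelial cells, but the size differed widely, 29.0-fold by the brightest and 3.37-fold by the other.

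Wnt5a, the closest paralog of Wnt5b and the classical non-canonical ligand, read 124.4 against 22.1, 5.63-fold higher. Another probe set above the floor read 164.2 against 12.8, and a dimmer one, under the floor, 42.5 against 12.3. The remaining one was at control level on both arrays, and the SD over the 4 was 1.62. Of the Wnt5a probe sets that carried signal, each was thus higher in mesothelial cells.

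Wnt4, a ligand with roles in the development of kidney and gonad, read 128.1 against 36.1, 3.55-fold higher, and its 2 probe sets had an SD of 0.28. Wnt11, a non-canonical ligand, read 122.8 against 70.7, a difference of 0.80 that turned sign under another scaling. Wnt4 was higher on both of its probe sets, and Wnt11 lay close to the shift of all genes.

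Of the 14 ligands under the floor, 7 were at control level on both arrays: Wnt1, Wnt3, Wnt7a, Wnt8a, Wnt10a, Wnt10b and Wnt16. A group of further canonical or little-expressed ligands read alike on the arrays: Wnt3a with 22.7 and 26.1, Wnt7b with 19.1 and 19.2, and Wnt8b with 32.2 and 24.9. Wnt9b, the paralog of Wnt9a, read 24.9 and 17.9, and its other probe set was at control level on both arrays. Its difference of 0.48 lay below that of the typical gene and turned sign under another scaling. Wnt2, a ligand of adult liver endothelium, read 21.3 in mesothelial cells, at least 2.03-fold over the control level at which it stood in liver cells. Under another scaling the difference of Wnt2 against that level fell to -0.055, so its direction is not settled. Wnt2b read 34.5 against 12.4 and Wnt6 26.2 against 11.7, both low on either array. Of the canonical ligands Wnt1, Wnt3 and Wnt3a, Wnt3a alone read above the control level, at close values on both arrays.

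The 4 R-spondins were all higher in mesothelial cells, under every scaling too, and 3 of them were mesothelial-high. Their median was 2.87, which is 2.21 above that of all genes, and at its lowest 1.8 under another scaling. Rspo1 read 300.1 against 6.8 and was at control level in liver cells, at least 28.6-fold higher. It has 1 probe set, so no further measurement of it was made on these arrays.

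Rspo3 read 760.0 against 62.4, 12.2-fold higher, and its dimmer probe set 61.2 against 7.5, at control level in liver cells and so at least 5.83-fold higher. Rspo2 read 87.9 against 19.9, 4.42-fold higher, while its other probe set was at control level on both arrays. Rspo4 read 39.4 against 14.5, under the floor. Rspo3 was thus far higher in mesothelial cells by both of its probe sets, whereas Rspo1 and Rspo2 rest on 1 each.

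Of the 10 Frizzled receptor genes, 8 were above the floor and 7 of these mesothelial-high, against 45.4% of all genes above it, while Fzd5 went the other way. Fzd3 and Fzd8 passed the floor through the mesothelial array alone, so that count cannot be read as support. Of those that reached the liver median, Fzd1, Fzd2, Fzd4, Fzd6 and Fzd7 were mesothelial-high and Fzd5 was not, against 39.6% of all genes so chosen. The median of the 10 was 1.92, which is 1.25 above that of all genes, and it stayed above 0 under each scaling, at its lowest 0.84. With arrays centred on the hybridisation controls 3 were mesothelial-high, Fzd8, Fzd2 and Fzd3, against 14.6% of all genes.

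Fzd8 read 236.1 against 16.5, 14.3-fold higher, and its second probe set 88.9 against 13.4. Fzd2, a receptor for both canonical Wnts and Wnt5a, read 2379 against 197.5, 12-fold higher, with differences of 2.60 and 2.66 for its dimmer probe sets. Fzd3, a receptor of axon guidance and planar polarity, read 243.9 against 33, 7.39-fold higher. Each of these 3 receptors was at least 2-fold higher on every probe set above the floor, which for Fzd3 were 5 of 6, with an SD of 1.25 over the 6.

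Fzd4 read 702.4 against 171.3, 4.10-fold higher, and Fzd7 1330 against 329.3, 4.04-fold. Fzd1, a close relative of Fzd2 and Fzd7, read 1161 against 328.7, 3.53-fold higher, and its 2 probe sets had an SD of 0.054. Fzd6, which acts in planar polarity, read 331.9 against 100.8, 3.29-fold higher. These receptor genes were well above control level in liver cells too, so the difference was one of degree. Fzd7 had an SD of 1.28 because its second probe set was at 14.7 and 12.8. Fzd4 had a further probe set at 265.5 against 32.3, a larger difference than that of the brightest one.

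Fzd5 was the exception: it read 378.5 in mesothelial and 695.2 in liver cells, a difference of -0.88 as deposited and -1.51 after median centring. Of 12018 genes above the floor, 95.5% had a difference at or above that of Fzd5. Its other probe set was at control level on both arrays and adds nothing to this. Fzd9 read 47.5 against 25 and Fzd10 18.7 against 8.8, both under the floor. The sign of Fzd9 depended on the scaling. Fzd10 was at control level in liver cells, and its difference against that level fell to -0.24 under another scaling. Fzd5 was thus the Frizzled gene that read lower in mesothelial cells by its brightest probe set, under every scaling tried.

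Both co-receptor genes were higher in mesothelial cells. Lrp6 read 2628 against 805.4, 3.26-fold higher, and its second probe set 167.4 against 103.9, a difference of 0.69 beside 1.71. Lrp5 has 1 probe set and read 121.1 against 35, 3.46-fold higher. When arrays were centred on the hybridisation controls neither reached 2-fold, with differences of 0.63 for Lrp6 and 0.72 for Lrp5.

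The Lgr genes, which encode R-spondin receptors, were split. Lgr4 read 1722 against 419.6, 4.10-fold higher in mesothelial cells, with a second probe set at control level in mesothelial cells and at 13.7 in liver cells. Lgr6 read 60 against 10.9, a difference of 2.46, but lay under the floor. Lgr5, a target gene of the canonical pathway and a stem cell marker, read 59.2 against 112.9, lower on the mesothelial array by its brightest probe set. Its other probe set read 37.1 against 13.6, higher in mesothelial cells but under the floor, and the SD between them was 1.68. The direction of Lgr5 thus depends on the probe set, and the median over both was 0.26.

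Among receptors with kinase or kinase-like domains, Ror1 read 154.6 against 22.1, 7-fold higher, and Ror2, a receptor for Wnt5a, 232.4 against 52.2, 4.45-fold higher. Of the dimmer probe sets of Ror1, one was at control level on both arrays. The other read 22.6 against 9.9, at control level in liver cells, so the 7-fold difference rests on 1 probe set. The second probe set of Ror2, also at control level in liver cells, read 33.8 against 6.4 and so was at least 3.22-fold higher. Both probe sets of Ror2 thus read higher in mesothelial cells. Ryk read 497.1 against 243.6 by a probe set with a cross-hybridising suffix, a difference of 1.03. Without such probe sets it was -0.10, with 189.7 against 203.8, and it was -0.047 when arrays were centred on the hybridisation controls. Ryk was the one gene among the 54 whose probe sets above the floor went both ways.

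Among the 9 secreted inhibitors, 4 were mesothelial-high, also under every scaling, and 5 were under the floor. Leaving out Wif1, which was at control level on both arrays, the median of the other 8 was 1.66, which is 0.91 above that of all such genes. Sfrp2 read 3509 against 277.3, 12.7-fold higher, from 1 probe set. Sfrp1 read 2656 against 247.9, 10.7-fold higher, and its other probe sets had differences from 2.85 to 3.94, or, for the one at control level in liver cells, at least 12.7-fold. Sfrp1 was the gene with the most probe sets above the floor that were all at least 2-fold higher, together with the 5 of Fzd3.

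Sfrp5 read 71.9 against 14.3, 5.03-fold higher, just over the floor, with a second probe set at 29.4 against 20.4. Dkk3, a divergent member of the Dickkopf family, read 202.5 against 41.4, 4.89-fold higher, and the SD of its 2 probe sets was 0.13. Both Dkk3 probe sets were above the floor and close to each other.

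The Dickkopf genes that bind the co-receptors were low. Dkk1 read 45.6 against 22.4 and Dkk2 31.5 against 17.8, both signs depending on the scaling, and Dkk4 read 18.4 against 32.8. Sfrp4 read 24.0 against 16.2, its sign likewise depending on the scaling, and Wif1 was at control level on both arrays. The inhibitors that read high in mesothelial cells were thus Sfrp1 and Sfrp2, with Dkk3 and Sfrp5 at lower signal, and not Dkk1, Dkk2, Dkk4 or Wif1.

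The feedback gene Axin2 read 321.1 against 31.9, 10.1-fold higher, and its difference of 3.33 was 2.67 above that of the typical gene. Its other probe set read 11.6 against 9.6, at control level on both arrays, so the SD was 2.16 and the median over both 1.8. Rnf43 read 110.3 against 23.3, 4.73-fold higher, from 1 probe set. Znrf3 read 872.4 against 245.5, 3.55-fold higher, while its second probe set differed by 0.42, below the shift of all genes. Porcn read 53.7 against 33.8, under the floor, and its sign depended on the scaling. The negative feedback genes Axin2 and Rnf43 were mesothelial-high under every scaling, and Znrf3 was not.

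**Figure D3:**
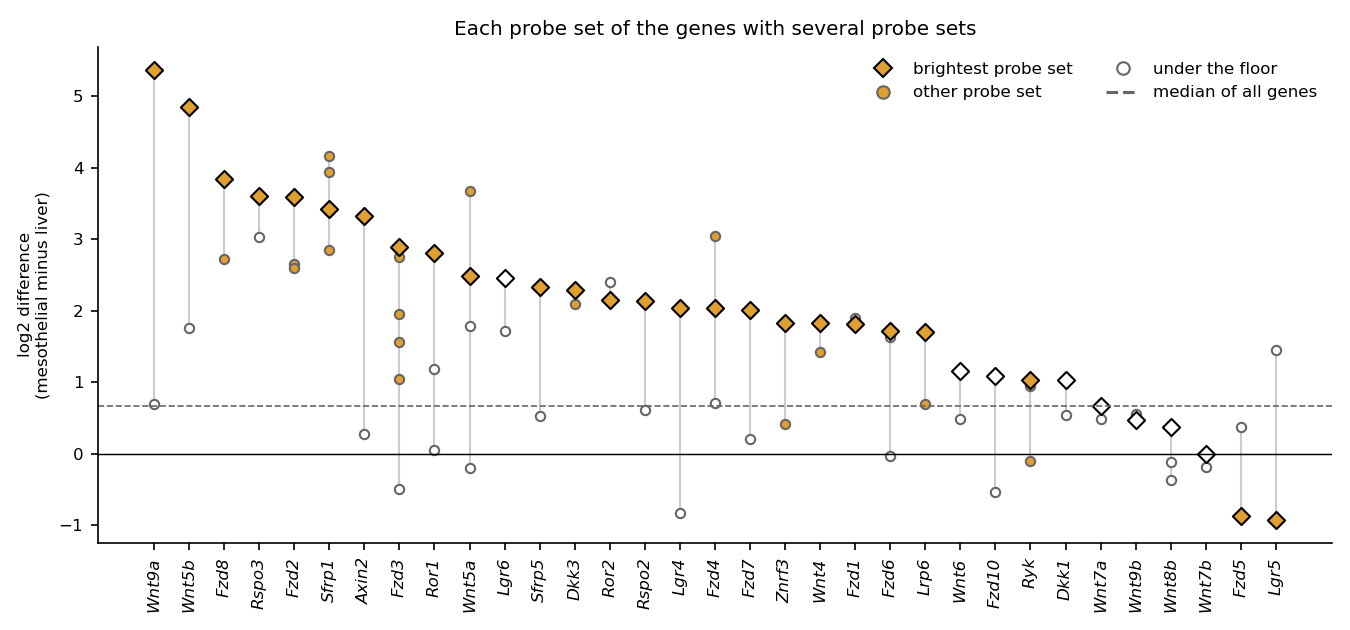
Log2 difference, mesothelial minus liver, of every probe set of the 33 genes with several probe sets, ordered by the brightest one (diamonds), with open symbols for probe sets under the floor. The dashed line is the median of all genes, 0.66. Sfrp1, Fzd2, Dkk3 and Wnt4 show probe sets close together, whereas Wnt9a, Axin2 and Lgr4 have 1 filled and 1 open symbol far apart. Values under the control level are drawn as measured.

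Agreement between probe sets differed among the genes. Of 49 probe sets of these genes above the floor, 42 differed by 2-fold or more towards the mesothelial cells and 3 were lower there: those of Fzd5, of Lgr5 and 1 of Ryk. Neither this share nor the agreement within genes that follows was counted over all genes of the arrays. A probe set can also pass the floor through the mesothelial array alone, so these counts cannot be read as support. Of the 27 mesothelial-high genes, 11 had at least 2 probe sets above the floor. In 8 of these 11, Dkk3, Fzd2, Fzd3, Fzd4, Fzd8, Sfrp1, Wnt4 and Wnt5a, each such probe set differed by 2-fold or more. The other 16 rest on 1 probe set above the floor, among them Rspo1, Wnt9a, Wnt5b, Sfrp2 and Axin2. By the median over all probe sets of a gene, 20 of the 27 still met both the floor and the 2-fold threshold. Of the rest, Lgr4 and Ryk fell under 2-fold. Axin2, Fzd6, Ror1, Rspo2 and Sfrp5 kept a median difference of 2-fold or more and missed only the floor.

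**Figure D4:**
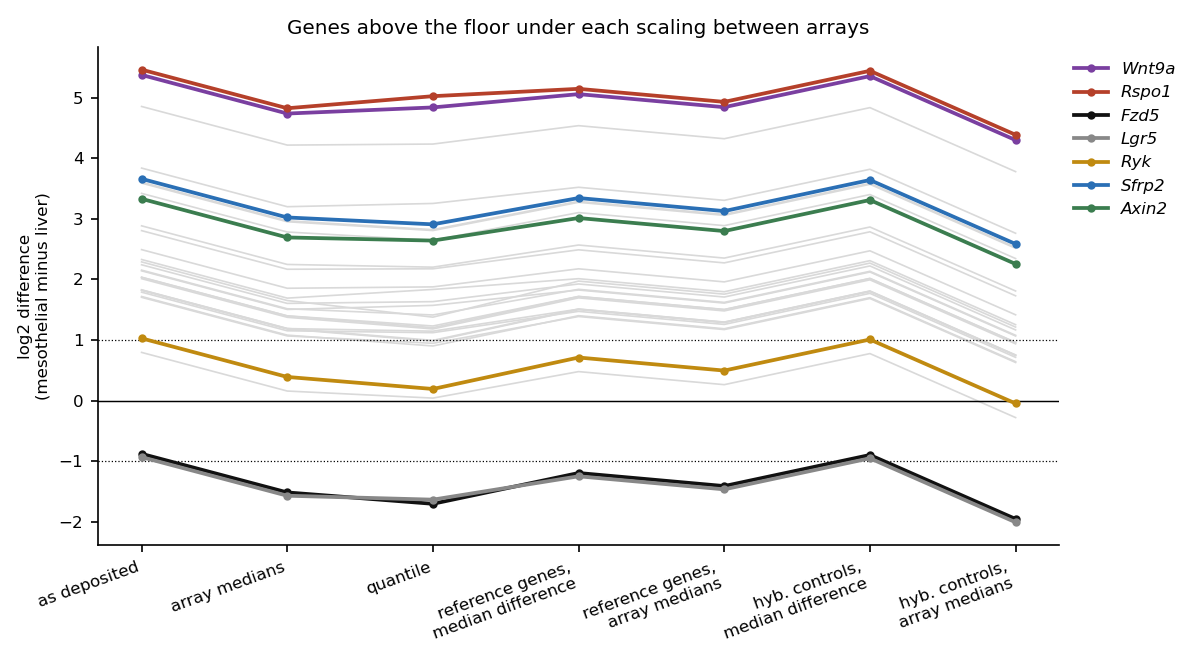
Log2 difference, mesothelial minus liver, of the 30 genes above the floor as deposited and under 6 scalings between arrays, with 7 genes in colour and dotted lines at 2-fold. Rspo1 is drawn as measured, although its liver value is at control level and its bound is 3.76 at the lowest. Wnt9a stays above 4 in each scaling, Ryk crosses 0 with centring on the hybridisation controls, and Fzd5 and Lgr5 stay below 0.

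Scaling between the arrays moved the size of every difference. All scalings but quantile normalization take the same constant off every difference, so the 6 are not independent checks. The largest constant was 1.08, with the hybridisation control medians as centre. Of the 27 mesothelial-high genes, 26 kept a positive difference under all 6 scalings and 17 stayed at 2-fold or more. The share of all genes that did so under every scaling was not counted. The 17 are Axin2, Dkk3, Fzd2, Fzd3, Fzd8, Rnf43, Ror1, Ror2, Rspo1, Rspo2, Rspo3, Sfrp1, Sfrp2, Sfrp5, Wnt5a, Wnt5b and Wnt9a. Rspo1, against the control level in liver cells, differed by at least 3.76 in each of these scalings, and the lowest value of Wnt9a was 4.30. The co-receptors and Fzd1, Fzd4, Fzd6 and Fzd7 were not among the 17. Quantile normalization gave 22 mesothelial-high genes and the same 2 liver-high ones, against 20.7% and 11.1% of all genes. Reference genes gave 26 and 2 in either form, against 33.0% and 5.72% with their median difference removed and 26.7% and 7.87% with their medians as centre. Removing the median difference of the hybridisation controls left 27 and 0, against 44.6% and 3.95%.

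Under other rules 0 of these genes were liver-high, although Ryk turned to -0.10 without cross-hybridising probe sets and Lgr5 to 0.26 by the median over probe sets. The median over probe sets gave 20 and 0, against 38.4% and 3.46% of all genes, and leaving out probe sets whose suffix marks possible cross-hybridisation gave 25 and 0, against 43.4% and 3.98%. A floor at percentile 75 gave 14 and 0, against 42.9% and 2.42%, and a floor on the mean of both arrays 23 and 0, against 44.6% and 2.52%. At 4-fold 20 genes were mesothelial-high and 0 liver-high, against 15.9% and 1.07% of all genes above the floor.

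Genes that carry Wnts or act on them outside the cell form a list of their own. Of 15 measured, 11 were above the floor and 9 of these mesothelial-high, 81.8% against 45.4% of all genes, or 7 after median centring, against 23.9%. Trabd2b, Apcdd1 and Cthrc1 passed the floor through the mesothelial array alone, and of the 8 that reached the liver median 6 were mesothelial-high, against 39.6% of all genes so chosen. Their median was 1.54, which is 0.88 above that of all genes. Reck, a membrane-anchored protein that forms a Wnt7 receptor complex with Adgra2, read 782.8 against 44.3, 17.7-fold higher, and Adgra2 199 against 68.2, 2.92-fold. Both were measured where Wnt7a was at control level and Wnt7b read alike. Trabd2b, a metalloprotease that cleaves Wnts, read 344.5 against 27.9, 12.3-fold higher, and the SD of its 2 probe sets was 0.75. Tpbg, a membrane protein that dampens canonical signalling, was 11.5-fold higher. Wls, the carrier of Wnts, read 351.9 against 79.5, 4.43-fold higher. Gpc4, a heparan sulphate proteoglycan, had the smallest difference of those above the floor, 0.84, and its sign depended on the scaling. Frzb, the Sfrp3 gene, read 46.4 against 29.4, under the floor.

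The cytoplasmic relay and nuclear factors lay closer to the shift of all genes. Of 28 measured, 25 were above the floor and 14 of these mesothelial-high, 56% against 45.4% of all genes, or 7 after median centring, against 23.9%. Their median of 1.14 was 0.48 above that of all genes. Ctnnb1, which encodes beta-catenin, read 9200 against 5192, a difference of 0.83 whose sign depended on the scaling. The TCF/LEF gene Lef1, itself a target of the pathway in some tissues, read 382.4 against 86.8, 4.41-fold higher, whereas Tcf7l2 differed by 0.81, its sign again depending on the scaling. Bcl9, a co-activator that binds beta-catenin, was 7.03-fold, Amer1 6.39-fold and Dvl2 4.85-fold higher. Cby1, a beta-catenin antagonist, had the smallest difference, 0.26, and its sign also depended on the scaling.

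Genes that respond to Wnt signalling in many tissues did not share a direction relative to all genes. Of 16 measured, 8 were above the floor and 6 mesothelial-high, 75% against 45.4% of all genes, with Nkd1 and Apcdd1 above the floor through the mesothelial array alone. After median centring 3 were mesothelial-high and 1, Myc, liver-high, against 23.9% and 9.26%. The median of the 16 was 0.81, which is 0.15 above that of all genes, and its sign depended on the scaling. Ccn4, a secreted matrix protein, read 851.5 against 63.8, 13.3-fold higher. Apcdd1, a membrane inhibitor of the pathway, read 230.7 against 23.5, 9.82-fold higher, and Tnfrsf19 was 4.47-fold higher. Tbx3 was 2.71-fold higher with 643.2 against 237.6, and the feedback gene Nkd1 2.36-fold with 91.2 against 38.6. Myc went the furthest the other way at 344.1 against 478.7. Notum, a Wnt deacylase, read 20.0 against 7.4, under the floor, and Glul, a pericentral gene of adult liver, 5075 against 4074, a direction that depended on the scaling. The zonated adult genes Cyp2e1 and Cyp1a2 were at control level on both arrays.

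Of 19 planar polarity and non-canonical genes, 17 were above the floor and 14 mesothelial-high, 82.4% against 45.4% of all genes. Of these, 6 passed the floor through the mesothelial array alone, and of the 11 that reached the liver median 8 were mesothelial-high, against 39.6%. After median centring 8 were mesothelial-high and 1, Camk2d, liver-high, against 23.9% and 9.26%. Their median of 1.29 was 0.63 above that of all genes. Celsr1, an atypical cadherin of the planar polarity core, read 239.8 against 13.9, 17.3-fold higher. Daam2, a formin of the Dishevelled pathway, was 8.58-fold and Prickle2 8.45-fold higher. Vangl2 read 381.6 against 101.4, 3.76-fold higher, and its paralog Vangl1 378.3 against 360.8, its sign depending on the scaling. Camk2d went the other way by its brightest probe set, with 70.3 against 116.8. Over its 7 probe sets the differences ran from -1.90 to 2.35, with a median of 0.16 and an SD of 1.37. The direction of Camk2d thus depends on the probe set.

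Markers of some other cell types read higher in mesothelial cells too. Of 12 genes of stellate and submesothelial mesenchyme, 10 were mesothelial-high, and the list had a median of 2.21 and summed intensities of 8176 against 1565. The defining gene Des read 174.9 against 33.3. Of 12 striated muscle genes, 10 were mesothelial-high and Acta1 was liver-high, with summed intensities of 4652 against 827.8 and Myod1 at 294.4 against 47.6. All 9 megakaryocyte genes measured were mesothelial-high, with summed intensities of 29819 against 8183 and Pf4 at 9712 against 3479. The share over all genes above the floor was 45.4%. After median centring 8 mesenchyme, 7 muscle and 6 megakaryocyte genes were mesothelial-high, against 23.9% of all genes. Des, Lhx2, Ngfr, Colec11, Lrat and Hand2, and the muscle genes Myf5, Tnnt2 and Ryr1, passed the floor through the mesothelial array alone. They had to read higher on it, so the mesenchyme and muscle counts cannot be read as support. Acta1 passed through the liver array alone. In bulk RNA, fewer cells of a type and less RNA per cell cannot be told apart. The part of these cells in the values of Wnt genes was not tested.

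Hepatoblast markers had a median of 0.68, and 4 of 12 were mesothelial-high, against 45.4% of all genes above the floor. These were Hnf4a by 3.04-fold, Dlk1 by 2.55-fold, Epcam by 2.53-fold and Foxa3 by 2.46-fold, of which Epcam passed the floor through the mesothelial array alone. After median centring 0 of the 12 were mesothelial-high and 1 was liver-high, against 23.9% and 9.26% of all genes. The summed intensities of the 12 were 73632 against 48810, with Alb at 15683 against 12832. Erythroid markers were lower in mesothelial cells, 6 of 8 being liver-high, with summed intensities of 13027 against 36779 and Epb42 at 62.7 against 1146. Endothelial markers had a median of 0.74 with 3 of 10 mesothelial-high, summed intensities of 3082 against 1614, and Pecam1 at 84.9 against 102.9. Of 10 macrophage markers 7 were mesothelial-high, with summed intensities of 7993 against 2189 and Csf1r at 2823 against 516.3. After median centring 4 macrophage markers and 1 endothelial marker were mesothelial-high. Liver-high were then 7 erythroid markers, 1 endothelial and 1 neural. Of 6 neural markers measured, 2 were above the floor and neither differed by 2-fold, with summed intensities of 217.1 against 175.6 and Sox10 at 47.3 against 33 by its brightest probe set. Another probe set of Sox10, above the floor, read 77.9 against 8.1, at least 7.42-fold higher. The defining gene of each list, which is the one given here, was above control level on both arrays, while Vsig4 of the macrophage and Foxd3 of the neural list were at control level on both.

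**Figure D5:**
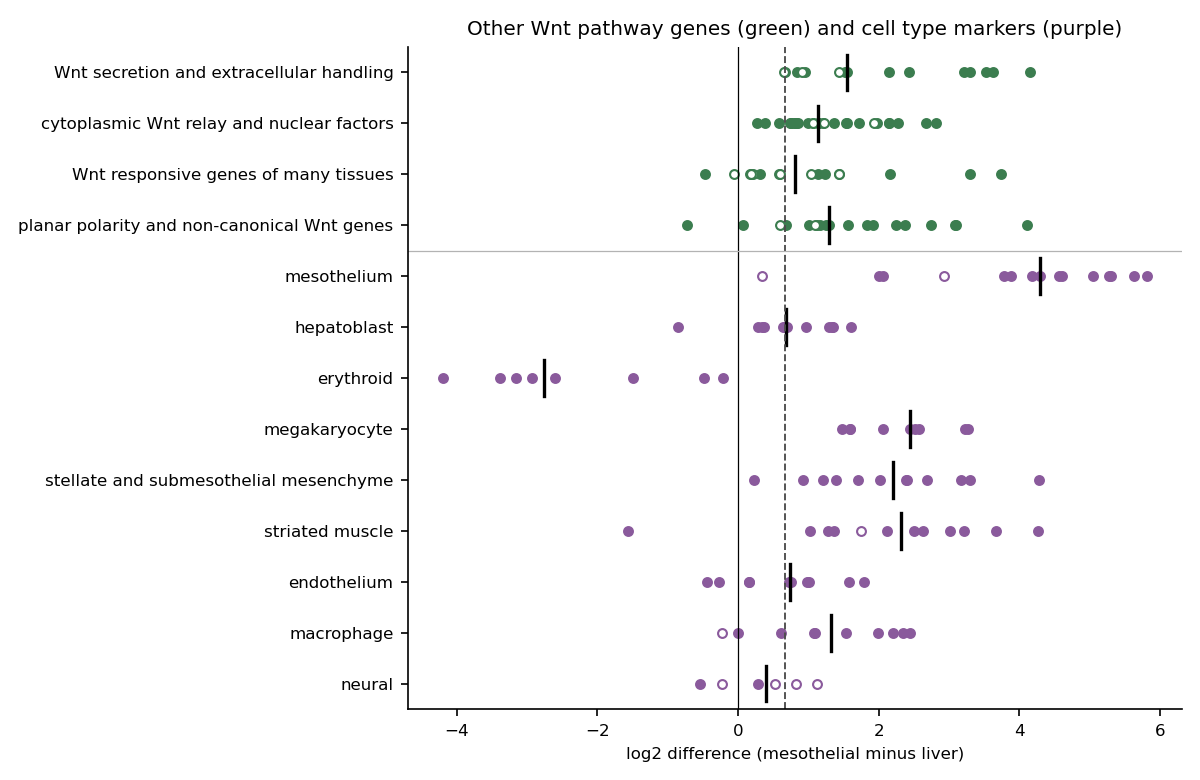
Log2 difference, mesothelial minus liver, of each measured gene of 4 further Wnt pathway lists (green) and 9 lists of cell type markers (purple), with open symbols for genes under the floor, a black bar at each list's median and the dashed line at the median of all genes, 0.66. Most mesenchymal, muscle and megakaryocyte markers lie right of the dashed line, except Hgf and Acta1, and erythroid markers lie left of 0. The Wnt ligands, receptors and inhibitors are not drawn here.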

How the data were processed

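Affymetrix Mouse Genome 430 2.0 arrays were hybridised with biotin-labelled cDNA amplified from 20 ng of total RNA per sample, per the labels' protocols. Each deposited value is the intensity of a probe set, taken as linear because of its range. RMA and Partek are named in the submitters' processing notes without version, role or order. The quantiles of the arrays differ, so no quantile normalization of this pair is seen, and further scaling steps are not stated. Amplification can alter ratios between transcripts. With 1 array per group the number of arrays limits the precision, and no test was run.

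Python 3.11.15 with pandas 2.3.3, numpy 2.4.6 and matplotlib 3.10.9 was used. Log2 was taken of the deposited intensities. Probe sets with 1 gene symbol in the platform annotation, controls left out, were used (34945, while 932 had several symbols), and all 54 genes matched a RefSeq gene ID with 0 renamed. For each gene the probe set brightest in mean log2 over both arrays was kept. Genes at or above the median (percentile 50) of either array and at least 2-fold apart were counted. The counting was tested on simulated data, with differences planted in genes bright on the liver array and equal over the probe sets of a gene. Genes low in liver cells and probe sets that disagree were not covered by it. Reference genes (22 measured) and 18 hybridisation control probe sets served for scaling. Every gene above the floor is named, and in each other pathway list the 3 largest differences and the 1 furthest the other way, with Wls, Ctnnb1, Lef1, Tcf7l2, Nkd1 and Tbx3, and some further genes added after their values were seen. Genes and lists were chosen with earlier results of these data known. Alternatives were other scalings, probe set rules, floors and a 4-fold threshold.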

Additional observations from a re-analysis of the deposited data

How the results depend on the processing

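Of the 54 genes, 27 were counted as mesothelial-high and 0 as liver-high. The first count became 14 with a floor at percentile 75 and 17 with centring on the hybridisation control medians, and it stayed within 1.5 times under the other alternatives, from 20 by the median over probe sets or at 4-fold to 35 without a floor. Added after the data were seen, a floor on the mean of both arrays gave 23, and no floor with low values at control level gave 33. The second count became 2, Fzd5 and Lgr5, with centring on array medians, quantile normalization, both reference gene scalings and centring on the hybridisation control medians. The median difference of the 54 genes, 1.69 as deposited, was 1.16 by the median over probe sets, 1.71 without cross-hybridising probe sets, 1.06 with array medians and 0.99 with quantile normalization. It was 1.38 and 1.16 with the reference genes by median difference and by array medians, 1.67 and 0.62 with the hybridisation controls likewise, and 1.59 with low values at control level. Ryk reversed to -0.10 without cross-hybridising probe sets and to -0.047 with centring on the hybridisation control medians. Of the 54 single differences, 53 others moved with that centring, 17 with quantile normalization, 13 by the median over probe sets and 4 with low values at control level. Among the 27 genes counted as mesothelial-high, none but Ryk changed direction under these alternatives. Wnt5b alone moved without cross-hybridising probe sets, to 1.75. The cause was not tested. Signal over background limits the 8 genes at control level on both arrays, for which no difference can be read. No paired analysis was possible because each group has 1 array.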
